A study of Saccharomyces cerevisiae with 64 samples.

Results

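In budding yeast, Saccharomyces cerevisiae, 121 stretches of 1 kb were chosen because control cells had made almost no DNA there by 35 min after release from G1 and a large amount in the pulse that ended at 55 min. They were taken from 11103 whole, non-overlapping 1 kb tiles of chromosomes I to XVI that lie at least 30 kb from a chromosome end. The members were thus selected on 2 measured columns: a tile qualified when its mean control signal was below 0.01 in the pulse ending at 35 min and at least 0.35 in the pulse ending at 55 min. Of the 11103 tiles, 6304 met the first condition, 703 met the second, and 121 met both. Member tiles with at most 1 tile between them were joined into 65 segments, of which 34 held 1 tile, 15 held 2, 9 held 3, 6 held 4 and 1 held 6.

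The working name given to these tiles, the last-replicated tiles of the control S phase, did not match the data. In the pulse ending at 45 min, 4269 tiles (38.4% of all) had less control signal than every member, and the median was 0.126 in members against 0.0703 over all tiles. Summed over the 3 control pulses, the signal was lower than in every member at 6485 tiles (58.4%). The sum holds the 55 min value, for which the rule required at least 0.35 in members, so this count was in part set by the rule. Tiles below 0.01 at 35 min and below 0.2 at 55 min, 3423 in number, had a median of 0.0154 at 45 min, a pulse that the rule did not use. The 55 min median of these tiles, 0.125, follows from the limit that defined them. Their median in the control of the RNR3 experiment was 0.155 and that of members 0.162, but 201 of them had 0 in all 3 control pulses. Among the 10893 tiles with signal in a control pulse and in the RNR3 control, 4060 (37.3%) were lower than every member at 45 min. In the sum, again in part set by the rule, 6275 (57.6%) were. The members are therefore called here the low-to-high tiles, by the rule that chose them.

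A yeast chromosome is copied from many origins, which fire at characteristic times in S phase. From each origin that fires, a pair of forks moves outward, and DNA between origins is copied when a fork reaches it or when forks from both sides meet. The time at which a stretch is copied thus depends on how early the nearest origins fire and on how far away they are. Fkh1 and Fkh2 are forkhead transcription factors that are known to bind near many early origins and to promote their early firing.

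New DNA was marked with the thymidine analogue bromodeoxyuridine (BrdU), pulled down with an antibody and sequenced. At 25 °C, α-factor at 7.5 nM held the cells in G1 for 3 h, and 2% galactose was then present for 2 h before release. In the time course, without drug, BrdU was present from 20 to 35, from 30 to 45 or from 40 to 55 min, so the pulses overlap. The groups were no OE (WT pGAL, the empty galactose promoter on a plasmid) and Fkh1 OE (WT pGAL-Fkh1), with 2 immunoprecipitated libraries per pulse. In hydroxyurea (HU, 0.2 M for 60 min), an inhibitor of ribonucleotide reductase that holds forks near the origins that fire early, the groups were no OE, Fkh1 OE and Fkh2 OE (WT pGAL-Fkh2) with 3 libraries each. The HU groups with 2 libraries each were a fkh1delta fkh2delta strain with ARS305 in place of ARS501 and either pGAL or pGAL-Fkh1, and WT cells without or with pGAP-RNR3, which expresses RNR3, a subunit of ribonucleotide reductase. RNA was measured in G1-arrested no OE, Fkh1 OE and Fkh2 OE cells, 2 libraries each. The galactose promoter drives Fkh1 or Fkh2 above the normal level before S phase starts, so the OE groups are not a model of normal forkhead dose. A BrdU value is a relative unit that the authors combined from all libraries of its group. Depth is unknown, no BrdU value has a replicate check or a test, and "higher" or "lower" in a count means a difference of at least 2-fold.

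The rule fixed the control values at 35 and 55 min, which are given as a description. Members had a median of 0.00786 at 35 min (lowest 0.00244, highest 0.00997) and 0.368 at 55 min (lowest 0.3501, highest 0.446). The 35 min median over all tiles was 0.00873, so a value below 0.01 was the common state of the genome in that pulse. Just inside the 35 min limit lay FAT3 (chromosome XI 91001 to 92000, 0.00997), YHL026C (VIII 53001 to 54000, 0.00996) and ADE3 (VII 906001 to 907000, 0.00993). Just outside it lay tiles in SHU1 and YHL005C (VIII 98001, 0.0101), HDA1 (XIV 594001, 0.0101) and GTT3 (V 123001, 0.0101). At the 55 min minimum the nearest members were in GDA1 and YEF1 (V 75001, 0.3501), EAF3 (XVI 609001, 0.3506) and BUL2 (XIII 48001, 0.3507). The nearest tiles below it were in GEA2 (V 112001, 0.3498) and, adjoining each other, in FUR4 (II 281001 and 282001, 0.3494 and 0.3493).

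The pulse ending at 45 min was not used by the rule, and there the members spread over a wide range. Control signal at 45 min ran from 0.0436 to 0.272, with an interquartile range of 0.102 to 0.155. The 2760 tiles with the same 35 min limit and 0.2 to 0.35 at 55 min had a median of 0.0586. The 582 tiles with the same 55 min minimum but at least 0.01 at 35 min had a median of 0.274. The members thus lay between these classes at 45 min. Since the pulses overlap, a tile copied between 40 and 45 min is marked in both of the later pulses.

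The 45 min signal was highest at X 700001 to 701000, in PMT4, a protein O-mannosyltransferase, and MGM101, which maintains mitochondrial DNA, at 0.272. It was 0.247 in MET6 (V 340001 to 341000), the gene of methionine synthase, and 0.237 in PIF1 (XIII 150001 to 151000), a DNA helicase. It was 0.233 at HHF2, a histone gene, and KTR5 (XIV 577001 to 578000). At the other end stood EAF3 (XVI 609001 to 610000), a chromatin protein of the NuA4 and Rpd3S complexes, at 0.0436. The neighbouring tiles in MET28 and YAP5 (IX 384001 to 385000) and in YAP5 and YIR018C-A (IX 385001 to 386000) had 0.0492 and 0.0513. These low tiles had 0.351, 0.364 and 0.376 at 55 min, and the first 3 high ones had 0.402, 0.359 and 0.353. The rule required at least 0.35 there, so the closeness of these values was in part set by it.

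**Figure D1:**
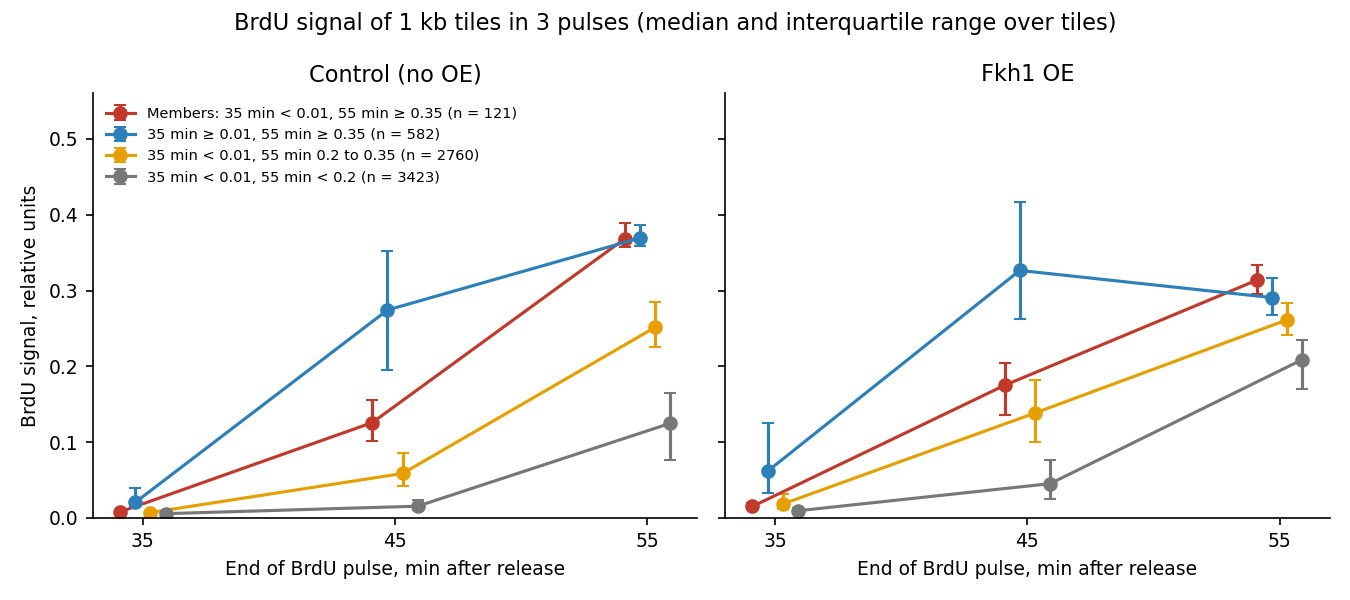
BrdU signal in relative units (vertical axis) against the end of the BrdU pulse in min after release, in control (left) and Fkh1 OE cells (right), as medians (points) and interquartile ranges (bars) over tiles of 4 classes. In control cells the low-to-high tiles (median 0.126 at 45 min) sit between tiles that already had signal at 35 min (0.274) and those with less signal at 55 min (0.0586 and 0.0154). The classes were defined by the control values at 35 and 55 min.

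The members lay between sites of early firing and at a distance from them. Sites were called as 251 peaks of control signal in HU, at least 3 times the median bin and 5 kb apart. The median distance from a member to the nearest peak was 16.6 kb, the same as over all tiles, but the spread was narrower, with an interquartile range of 13.8 to 19.5 kb against 6.73 to 34.2 kb. No member was further than 27.3 kb from a peak, while the class below 0.2 at 55 min had a median of 34.7 kb. Tiles high at 55 min and already marked at 35 min had a median of 9.48 kb. The rule and the peaks both read early firing, from separate libraries, so a distance above a few kb was in part set by the 35 min limit.

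The interval between the flanking peaks was shorter for members than for all tiles, with a median of 51.6 kb against 72.8 kb. It was shorter still, at 39.0 kb, for tiles with the same 55 min minimum that were already marked at 35 min. Of 112 members with a peak on both sides, 36 (32.1%) were at least 0.4 of the interval away from either peak, against 20.4% of all tiles and 30.4% of the class below 0.2 at 55 min. With 1 value per segment it was 15 of 60 (25%). For members the peak further away was at a median of 31.9 kb. With peaks of at least 5 times the median bin, of which there were 176, the median distance of members was 18.5 kb and 0 members lay within 5 kb.

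Only 4 members lay within 5 kb of a control peak (3.31%, against 19.5% of all tiles). The low share was not particular to members. Among tiles with the same 35 min limit it was 4.42% with 0.2 to 0.35 at 55 min and 4.56% below 0.2. The peaks beside the 4 members were low, at 3.19 to 4.78 times the median bin, where the median peak stood at 16.9 times. These members lay in YFR035C and CDC26 (VI 226001 to 227000), GAL1 (II 280001 to 281000), PIF1 (XIII 150001 to 151000) and PER1 (III 207001 to 208000). GAL1 encodes galactokinase and adjoins the galactose promoter. Its tile was 1.88 kb from a control peak and 24.9 kb from the nearest peak of Fkh1 OE cells, and the part of promoter DNA on the plasmids in that control peak was not tested.

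**Figure D2:**
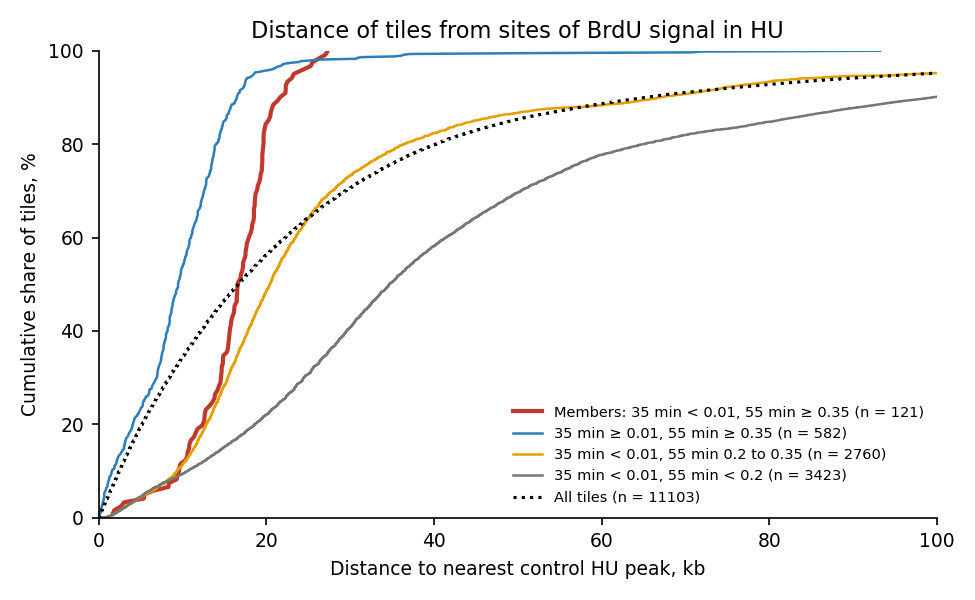
Cumulative share of tiles in percent (vertical axis) against the distance to the nearest control HU peak in kb (horizontal axis) for the low-to-high tiles, 3 comparison classes and all tiles. The curve of the low-to-high tiles is steepest between 13.8 and 19.5 kb, where the middle part of them lies, and ends at 27.3 kb.

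Around the 65 segments the pulses formed opposite patterns. In control cells the mean signal at 35 min was 0.00765 at the segment centre, 0.0366 and 0.0423 at 10 kb to the left and right, and 0.141 and 0.153 at 20 kb. At 45 min it was 0.129 at the centre and 0.321 and 0.315 at 20 kb to the left and right. At 55 min the order was turned round, with 0.372 at the centre and 0.239 and 0.203 at 20 kb. The values at the centre follow from the rule at 35 and 55 min, so the contrast with the flanks in these pulses was in part set by it. The 45 min pulse was not used by the rule but overlaps both of its pulses in time.

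**Figure D3:**
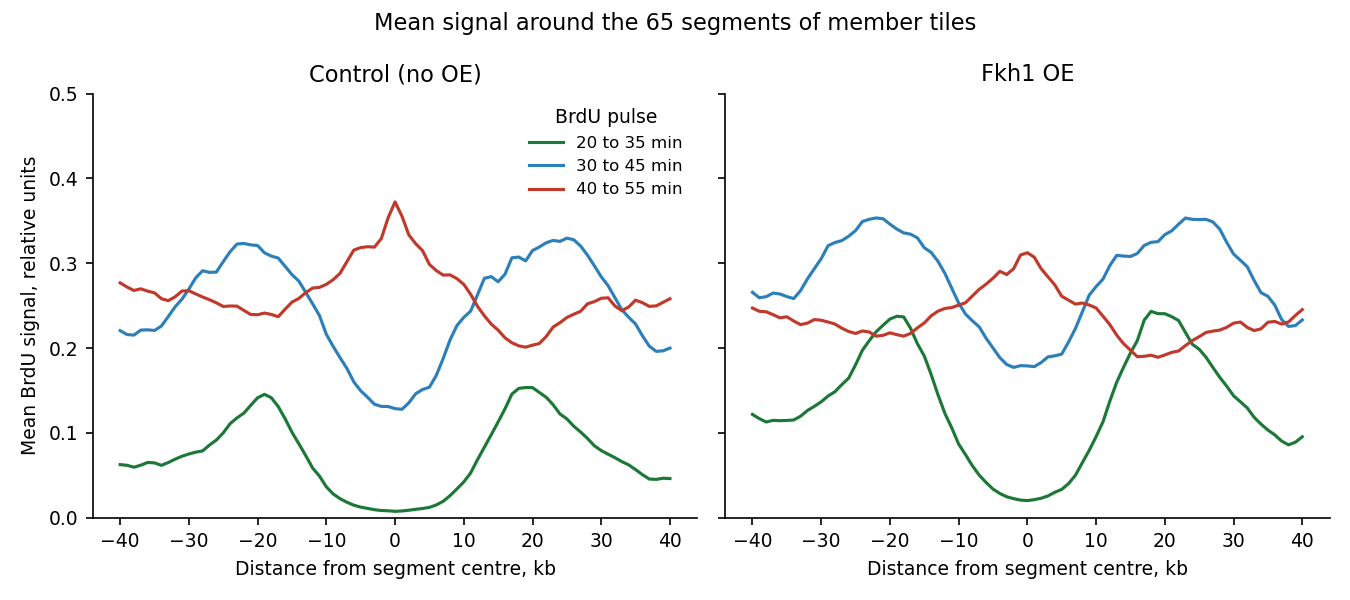
Mean BrdU signal in relative units (vertical axis) against the distance from the segment centre in kb (horizontal axis) over 65 segments, in 3 pulses, for control (left) and Fkh1 OE cells (right). In both strains the pulses to 35 and 45 min are high near 20 kb on either side and low at the centre (0.00765 and 0.129 in control, 0.0203 and 0.179 with Fkh1 OE), and the pulse to 55 min is highest at the centre (0.372 and 0.312).

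The members were unevenly spread over chromosomes. On chromosome X, 18 of 685 tiles were members (2.63%), and on chromosomes III and V 6 of 256 (2.34%) and 12 of 516 (2.33%). By segments the order differed, with 9 on chromosome VII, 8 on V and 5 on X. Chromosome IV, the longest by number of tiles, held 2 of 1471 (0.136%), in DBP10, an RNA helicase of ribosome assembly, and in MSN5, a nuclear transport receptor. Chromosomes I and VI held 1 each. Neighbouring members share a replicon, and 12 pairs of segments lay within 20 kb of each other, so 121 tiles are far fewer independent places.

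Distances to centromeres were shorter than in the genome. The centromere, taken as the midpoint between the innermost genes of the left and right arm, was at a median of 96.4 kb from members and 211 kb from all tiles. The class with the same 55 min minimum and signal at 35 min had a median of 94.6 kb. Within 20 kb of a centromere lay 4 members (3.31%) and 5.76% of all tiles. Among tiles with the same 35 min limit it was 0.435% with 0.2 to 0.35 at 55 min and 0.555% below 0.2. In the class with the same 55 min minimum and signal at 35 min it was 12.9%. Between 30 and 60 kb from a chromosome end lay 20 members (16.5%) and 8.65% of all tiles.

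The 8 longest segments show the pattern in single places. The longest, X 700001 to 706000, ran through PMT4, MGM101, the ribosomal protein gene RPS4A, YJR146W, HMS2 and BAT2, a branched-chain aminotransferase. Its 6 tiles had 0.272, 0.198, 0.159, 0.145, 0.150 and 0.135 at 45 min in control cells, from left to right. With Fkh1 OE they had 0.228, 0.197, 0.161, 0.152, 0.166 and 0.152. In both strains the signal was highest in the first tile and varied little over the last 4, and the strains differed most in the first tile. At 55 min all 6 tiles were lower with Fkh1 OE, at a mean of 0.310 against 0.378.

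X 390001 to 395000 held VPS53, RNR2, the small subunit of ribonucleotide reductase, and RRN7, a transcription factor of RNA polymerase I. Its 4 member tiles had 0.197, 0.126, 0.103 and 0.0984 at 45 min in control cells, and 0.242, 0.199, 0.165 and 0.133 with Fkh1 OE. All 4 were thus higher with Fkh1 OE, with a segment mean 1.41-fold that of control. This segment lay between peaks 42.3 kb apart.

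At XII 390001 to 394000, with YPS3 and the open reading frames YLR122C and YLR125W, the mean at 45 min was 0.171 in control and 0.197 with Fkh1 OE. At XIV 577001 to 581000, with HHF2, KTR5 and CRZ1, the calcineurin-responsive transcription factor, it was 0.173 and 0.168. A further segment of the same interval, XIV 589001 to 594000 with FAP1, RCM1 and the histone deacetylase gene HDA1, had 0.113 and 0.131. Both lie between the same peaks, 48.5 kb apart, at mean distances of 18.0 and 17.9 kb from the nearest peak.

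At XII 573001 to 577000, with CPR6, COA4, MSC3 and the vacuolar iron transporter gene CCC1, the means at 45 min were 0.0962 and 0.155, the highest ratio of the 8 segments (1.61). At XIII 305001 to 310000, with the transcription factor gene SOK2 and SPO20, a SNARE of sporulation, they were 0.120 and 0.161. XIII 243001 to 246000, with TAF11, a subunit of TFIID, TRM9, a tRNA methyltransferase, and UBX2, had the highest 55 min mean of the 8 segments, 0.431 in control, which chose it. It had 0.337 with Fkh1 OE at 55 min, and 0.145 and 0.183 at 45 min. Across the 8 segments the 45 min ratio ran from 0.969 to 1.61 and the 55 min ratio from 0.769 to 0.957.

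With Fkh1 OE, the members had more signal in the earlier pulses and less in the last. Their median went from 0.00786 to 0.0151 at 35 min, from 0.126 to 0.175 at 45 min and from 0.368 to 0.314 at 55 min. The medians of all tiles went from 0.00873 to 0.0243, from 0.0703 to 0.158 and from 0.243 to 0.237. The members' median fold was below that of the whole genome in every pulse, at 2.05 against 2.34, 1.31 against 1.86 and 0.837 against 0.993.

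At 35 min, 65 of 121 members were higher with Fkh1 OE (53.7%, against 61.3% of all tiles), and 0 were lower (0.0553%). At 45 min, 6 were higher (4.96%, against 45.8% of all tiles) and 0 lower (0.0276%), although 115 of 121 were above a ratio of 1. At 55 min, 0 were higher (9.65%) and 0 lower (0.0642%). There 112 of 121 were below 1, with 7.44% above 1, against 49.3% of all tiles. The folds at 35 and 55 min share their control values with the rule, which chose low values in the one and high values in the other. Only the 45 min fold shares no control column with the rule, although that pulse overlaps both pulses of the rule in time.

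The 45 min median fold differed with how much control signal a class had. It was 2.22 in the class with 0.2 to 0.35 at 55 min, 2.82 in the class below 0.2, and 1.18 in tiles high at 55 min that were already marked at 35 min. The members, at 1.31, were nearest to the last of these. When each column was scaled to its total nuclear signal, the members' median fold was 0.960 at 35 min and 0.964 at 45 min, and the direction of both was turned.

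The control sum and the control shares of the 3 pulses rest mostly on the 55 min value that chose the members, and are given as a description. The summed signal of members had a median of 0.506 in control and 0.505 with Fkh1 OE, while that of all tiles was 0.339 and 0.449. The 55 min pulse held a median of 74.0% of a member's summed signal in control and 63.0% with Fkh1 OE, against 74.3% and 57.8% over all tiles. The 45 min pulse held 24.9% and 34.4%. In control, 121 of 121 members were highest at 55 min, as were 80.1% of all tiles. With Fkh1 OE, 117 were, and 65.8% of all tiles, and 4 members were highest at 45 min.

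Few tiles met the same rule in the Fkh1 OE columns. Only 6 of 11103 tiles did so, 4 of them members. Of the 121 members, 14 were below 0.01 at 35 min with Fkh1 OE, as were 2418 of all tiles (21.8%), and 16 were at least 0.35 at 55 min, as were 132 of all tiles (1.19%). The members were picked at low and high values of the control columns. Across the 121 members, control and Fkh1 OE signal at 45 min had Pearson's r of 0.738 and Spearman's rho of 0.750. The 121 points share segments and the sequence composition of the tile, and the value is a description.

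The members most marked at 35 min with Fkh1 OE were 5 tiles of at least 0.05 in 3 places. XI 526001 to 528000 held NAP1, a histone chaperone gene, FMP46 and the potassium transporter gene TRK2. Its 2 tiles went from 0.00853 and 0.00530 in control to 0.123 and 0.128 at 35 min. At 45 min they went from 0.232 and 0.203 to 0.429 and 0.366. They were 9.63 and 10.6 kb from the nearest control peak but 4.02 and 3.02 kb from a peak in Fkh1 OE cells.

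At X 661001 to 663000, in RSF2, a zinc finger transcription factor gene, and YJR128W, the 2 tiles had 0.00570 and 0.00962 in control at 35 min. With Fkh1 OE they had 0.0614 and 0.0520. At 45 min they had 0.0984 and 0.104 in control and 0.270 and 0.243 with Fkh1 OE. The nearest control peak was 22.3 and 21.3 kb away and the nearest Fkh1 OE peak 6.98 and 7.98 kb. FAT3 (XI 91001 to 92000) had 0.00997 and 0.0506 at 35 min and 0.125 and 0.273 at 45 min, with peaks at 27.3 kb in control and 7.02 kb with Fkh1 OE.

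In these places a site marked in HU with Fkh1 OE lay nearer than any control site, and the members were therefore divided by that distance, a division made after seeing these values and no independent check of them. For 16 members in 10 segments, the nearest of 368 Fkh1 OE peaks in HU lay at least 5 kb closer than the nearest control peak. Their median signal at 35 min was 0.00867 in control and 0.0348 with Fkh1 OE, and 15 of 16 were higher. At 45 min it was 0.118 and 0.229, a median fold of 1.76. At 55 min it was 0.297 with Fkh1 OE. The other 105 members had 0.00778 and 0.0143 at 35 min, with 50 of 105 higher, and 0.129 and 0.165 at 45 min, a median fold of 1.27. At 35 min with Fkh1 OE the values of the 16 ran from 0.0138 to 0.128 and those of the 105 from 0.00346 to 0.0368, so the groups overlap. Of the 6 members higher at 45 min, 4 were among the 16. The 5 tiles named above are among the 16, and without them the median folds of the remaining 11 were 3.61 at 35 min and 1.66 at 45 min. Over all tiles, 4243 had a Fkh1 OE peak at least 5 kb closer, with median folds of 3.06 and 2.70, and the other 6860 had 2.15 and 1.39.

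The 16 include both tiles in RPA135 (XVI 579001 to 581000), a large subunit of RNA polymerase I, which had 0.155 and 0.148 in control and 0.250 and 0.252 with Fkh1 OE at 45 min. They also include the highest 45 min fold of all members, 3.15, in PIM1, the mitochondrial Lon protease, and HAP3, a subunit of the CCAAT-binding complex (II 181001 to 182000), from 0.0735 to 0.232. This tile was 17.4 kb from the nearest control peak and 3.23 kb from the nearest Fkh1 OE peak. At 2.66-fold, the tile in YFR035C and CDC26 (VI 226001 to 227000) also stood out at 45 min. It belongs to the other 105 and had a peak at 1.68 kb in control and 1.73 kb with Fkh1 OE.

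The members least marked at 35 min with Fkh1 OE had Fkh1 OE and control peaks at nearly the same distance. Most members, 105 of 121, likewise had no Fkh1 OE peak at least 5 kb closer than the nearest control peak. That count does not show equal distances, since a Fkh1 OE peak can also lie further away, as at GAL1. FLO11 (IX 391001 to 392000), the gene of a cell surface flocculin, had 0.00519 in control and 0.00346 with Fkh1 OE, and peaks at 20.3 and 20.2 kb. The tile at XIII 309001 to 310000, which overlaps no gene, had 0.00719 and 0.00692. PET130 (X 397001 to 398000) had 0.00660 and 0.00736, ERS1 and EGO2 (III 248001 to 249000) 0.00266 and 0.00743, and SPO20 (XIII 307001 to 308000) 0.00953 and 0.00829. In all 5 the nearest Fkh1 OE peak lay at 20.2 kb or more. Over all members the median distance to a Fkh1 OE peak was 17.1 kb, against 16.6 kb to a control peak, while over all tiles it was 9.53 kb against 16.6 kb.

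**Figure D4:**
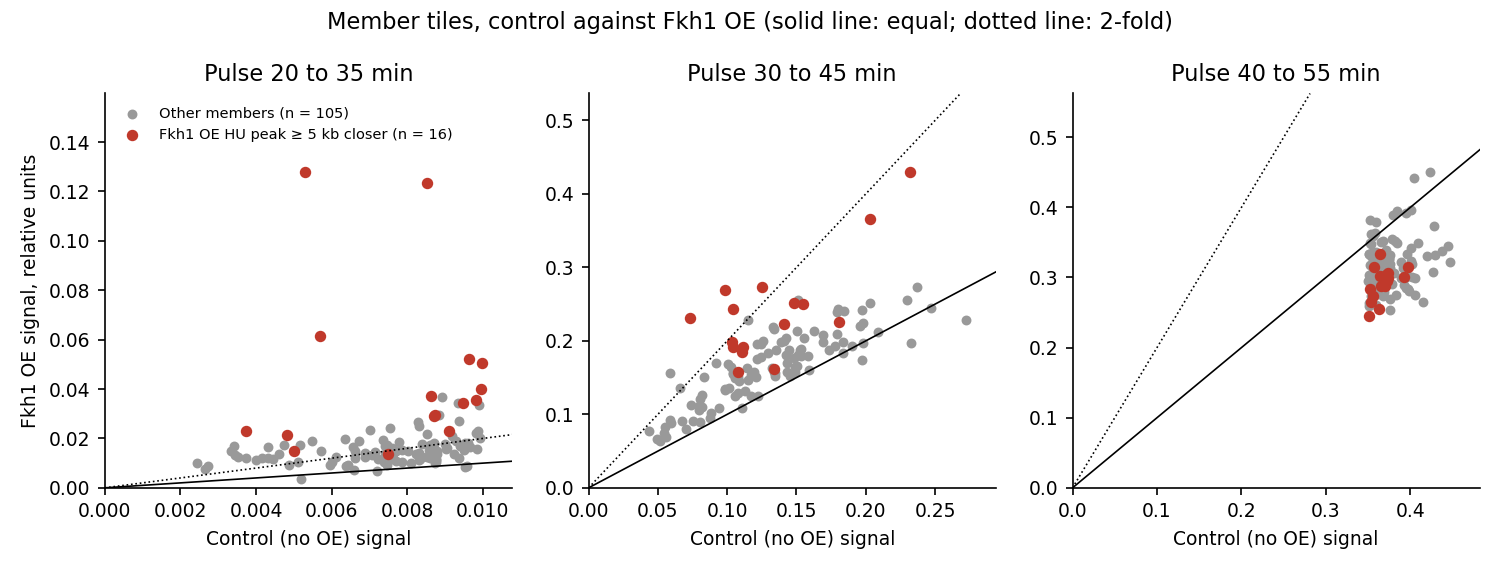
Fkh1 OE signal (vertical axis) against control signal (horizontal axis), both in relative units, of 121 low-to-high tiles in 3 pulses; red points are the 16 tiles with a Fkh1 OE HU peak at least 5 kb closer than any control peak and grey points the other 105. At 45 min 115 of 121 points lie above the line of equal signal and at 55 min 112 lie below it, and the highest points at 35 min (0.123 and 0.128, in NAP1, FMP46 and TRK2) are red.

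In HU the members had low signal in no OE, Fkh1 OE and Fkh2 OE cells. Their medians were 0.00441 in no OE, 0.00571 in Fkh1 OE and 0.00461 in Fkh2 OE, beside medians of all tiles of 0.00437, 0.00616 and 0.00465. In these 3 groups, 0 of 121 members reached 3 times the median bin, a level reached by 9.68%, 12.8% and 8.59% of all tiles. Signal in HU and the 35 min pulse both read early firing, so low HU values were in part set by the rule. The class with the same 35 min limit and 0.2 to 0.35 at 55 min had medians of 0.00406, 0.00558 and 0.00434. The highest member values were 0.00802, 0.0117 and 0.00891. The comparisons of Fkh1 OE and of Fkh2 OE with no OE share their control column.

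For Fkh1 OE against no OE in HU, the median fold of members was 1.28 and that of all tiles 1.37. None of the 121 members (0) was higher by 2-fold, where 11.7% of all tiles were, and 0 were lower (0.321%). The fold ran from 0.760 to 1.98 and was above 1 at 112 members (92.6%), a share near the 92.7% of all tiles. For Fkh2 OE the median fold was 1.03 in members and 1.03 in all tiles, with 0 higher (2.23%) and 0 lower (5.3%), and it ran from 0.688 to 1.49. Because the median of all tiles was itself at 1.37 with Fkh1 OE, the members' median relative to it was 0.935, and relative to the median of all tiles with Fkh2 OE it was 0.998. Scaling to the total nuclear signal turned the Fkh1 OE fold of members to 0.922 and moved that of Fkh2 OE to 1.58.

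The 5 members with most signal in HU with Fkh1 OE stayed below 3 times the median bin as well. The upper quartile of all tiles in that column was 0.00899. PRB1 (V 41001 to 42000), which encodes vacuolar proteinase B, had 0.00718 in no OE, 0.0117 in Fkh1 OE and 0.00891 in Fkh2 OE. SPT8 (XII 252001 to 253000), a subunit of the SAGA complex, had 0.00802, 0.00974 and 0.00649. EAF3 (XVI 609001 to 610000) had 0.00647, 0.00965 and 0.00841. The tile in YJL027C and RNR2 (X 392001 to 393000) had 0.00669, 0.00925 and 0.00597, and DOT6 (V 333001 to 334000) 0.00539, 0.00893 and 0.00639. Fkh1 OE was the highest of the 3 groups in all 5, which were chosen for that column. The tiles at XI 526001 to 528000, most marked at 35 min in the time course, had 0.00826 and 0.00880 in HU with Fkh1 OE, and 0.00470 and 0.00538 in no OE.

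In the fkh1delta fkh2delta strain the members had a median of 0.00701 without and 0.00547 with Fkh1 OE, beside 0.00840 and 0.00607 over 10799 measured tiles. With Fkh1 OE 21 members were lower (17.4%, against 29.5% of all tiles) and 3 were higher (2.48%, against 3.89% of all tiles). In the class below 0.2 at 55 min 18.2% were lower, with a median fold of 0.784, near the members. The class with 0.2 to 0.35 had 30.7% lower and a median fold of 0.670. Tiles high at 55 min and already marked at 35 min had 27.3% and 0.728. The median fold was 0.815 in members and 0.703 in all tiles, so members relative to all tiles stood at 1.16. The lowest fold was at GAT4 (IX 380001 to 381000), from 0.0291 to 0.00627, and this tile was the 1 member to reach 3 times the median bin in this strain without Fkh1 OE, a level reached by 17.6% of all tiles. The 3 higher ones were MET6 (V 340001 to 341000), from 0.00166 to 0.00856, RPS4A (X 702001 to 703000), from 0.00193 to 0.00548, and BBC1 (X 399001 to 400000), from 0.00317 to 0.00680. All 3 were higher from values far below the median of the column, and with 0.01 added to each value 0 members were higher and 0.826% were lower. Scaled to total nuclear signal the median fold was 1.24.

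In the RNR3 experiment, whose columns have a higher background, the members had a median of 0.162 in control and 0.146 with RNR3 OE, beside 0.158 and 0.150 in all tiles. No member (0) was higher (7.94% of all tiles) or lower (0.0824%), and 93 of 121 were below a ratio of 1. Above 1 were 23.1% of members, 43.5% of all tiles and 21.3% of the class with 0.2 to 0.35 at 55 min. In that class, too, 0 of 2760 tiles were higher. The members' median fold was 0.901, against 0.912 and 0.902 in the classes with less signal at 55 min and 1.06 in tiles already marked at 35 min. The lowest ratio was at FLO11 (IX 391001 to 392000), from 0.154 to 0.0987. The highest was at NAP1 and FMP46 (XI 526001 to 527000), from 0.148 to 0.185.

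**Figure D5:**
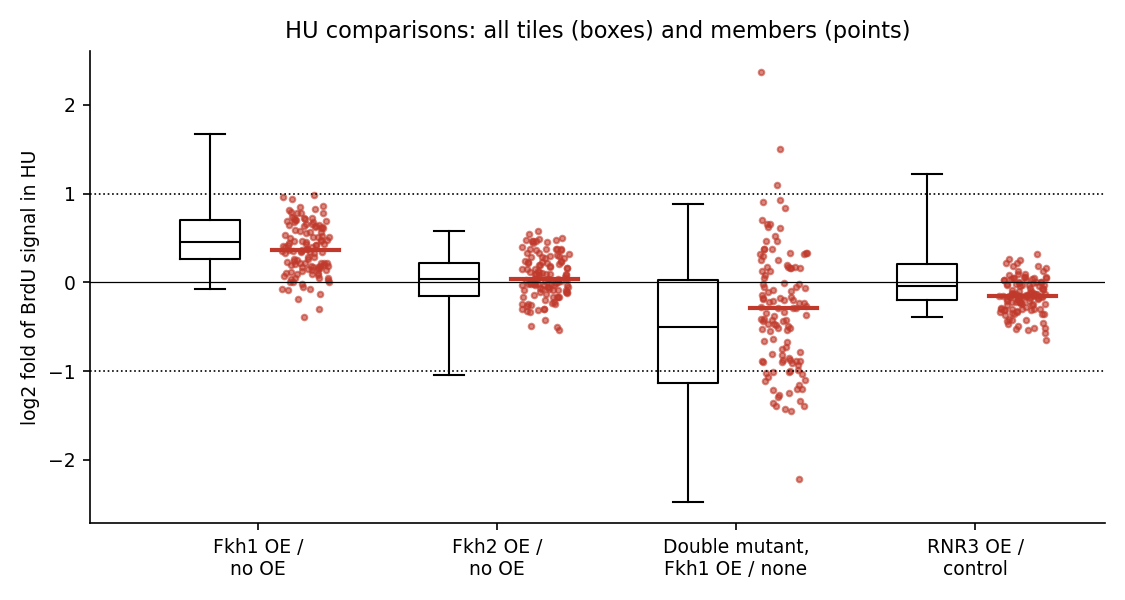
log2 fold of BrdU signal in HU (vertical axis) in 4 comparisons; boxes show the median and quartiles of all tiles with whiskers at the 5th and 95th percentiles, red points are the 121 low-to-high tiles and red lines their medians, and dotted lines mark 2-fold. The red points stay within 2-fold for Fkh1 OE, Fkh2 OE and RNR3 OE, and in the double mutant 21 lie below and 3 above.

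The members overlapped 122 annotated genes, 119 of them protein coding, and 4 tiles overlapped none. A transfer RNA gene lay in 1 member (0.826%), against 2.67% of all tiles. In G1-arrested no OE cells, the median RNA level in the authors' deposited table was 51.4 FPKM for 112 entries that touch a member, and 62.3 FPKM for all entries. The interquartile range was 28.0 to 126 FPKM in members and 28.0 to 162 FPKM in all. A gene was called by the authors' q below 0.05, and the RNA was taken before S phase.

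With Fkh1 OE, 7 of 112 entries were higher in the authors' deposited table (6.25%, against 5.95% of all) and 2 were lower (1.79%, against 5.81%). RPA135 rose from 26.3 to 55.8 FPKM (q = 0.000327), RSA4 from 8.45 to 16.2 (q = 0.00306) and UTP13 from 30.0 to 48.0 (q = 0.00328) in the authors' deposited table. RSA4 and UTP13 act in ribosome assembly. DBP10 rose from 39.4 to 62.4 FPKM (q = 0.00497) and NSR1, the yeast nucleolin, from 71.4 to 116 (q = 0.0451) in the same authors' deposited table. ALD6, an aldehyde dehydrogenase gene, rose from 671 to 1268 FPKM (q = 0.000327) and PUF2, an mRNA-binding protein gene, from 33.0 to 46.5 (q = 0.0473) in the authors' deposited table. ERS1 fell from 57.9 to 19.9 FPKM and CIN8, a mitotic kinesin gene, from 16.9 to 7.47 (each q = 0.000327) in the authors' deposited table. Not all member genes with a role in ribosomes or their RNA passed. RPS4A had 748 and 843 FPKM (q = 0.573), RSA3 112 and 118 (q = 0.842), NSA1 67.3 and 73.2 (q = 0.712) and RRN7 5.98 and 5.38 (q = 0.771) in the authors' deposited table.

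With Fkh2 OE, 21 of 113 entries were higher (18.6%, against 14.5% of all) and 21 lower (18.6%, against 18.1%) in the authors' deposited table. RPA135 was at 92.1 FPKM (q = 0.000327) and ERS1 at 12.6 FPKM (q = 0.000327). Both comparisons share the no OE control. In the authors' deposited table HHF2 had 486 FPKM in no OE and 573 with Fkh1 OE (q = 0.452), and RNR2 had 177 and 193 FPKM (q = 0.721).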

How the data were processed

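The members and the lists were chosen with earlier results of these data known. The BrdU signal was deposited by the authors in 4 tables with 13 columns of 50 bp bins, each column combining a group's libraries. Their scaling, by Input or otherwise, was not stated, and folds are ratios of deposited values. Bowtie2, SAMtools, bedtools, TopHat2, Cufflinks and genome build R64 are named in the submitters' processing notes. FPKM and q-values per gene were deposited by the authors, in columns of Cuffdiff per the file headers. Depth per library is unknown, and 0 per-sample columns were left unmapped.

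Bins were averaged over 1 kb tiles with Python 3.11.15, numpy 2.4.6 and pandas 2.3.3. Peaks were maxima after a 1000 bp running mean. A design with tests over libraries had been planned, but the files held combined columns, so a size rule of 2-fold replaced it. Tiles with a 0 in either column of a fold were left out of it. Double mutant bins at 0 in both columns were treated as missing. Its chromosomes III and V are longer than in R64 and were read beyond the altered site at offsets of 10150 and 300 bp. In the windows of chromosome III that hold members (200001 to 220000 and 240001 to 260000), the rank correlation with the HU table was 0.477 and 0.146 at the offset and -0.199 and -0.107 without, so the match is weak in the latter. Without chromosome III the members' median fold in the double mutant was 0.792, with the same 3 higher and 21 lower. Of 7053 gene names in the RNA table, 6058 matched the R64 gene table, and 118 of 122 member genes were found. No label says that the 2 RNA libraries of a group were separate cultures, and q-values may cover technical spread only. Overlapping and antisense genes may share reads. Named segments are the 8 longest, ties going to the higher 55 min signal. Named tiles are the 5 highest and 5 lowest with Fkh1 OE at 35 min, the 5 highest in HU with Fkh1 OE and the 3 on each side of each limit. Other named tiles were picked after seeing values. The tiling and joining were tested on simulated data. Sequences and reference origin positions were not used here.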

Additional observations from a re-analysis of the deposited data

How the results depend on the processing

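No paired analysis was possible because each deposited column combines the libraries of a group and carries no replicate number, and no replicate could be left out for the same reason. Alternatives that need a genome sequence were not run. The number of member tiles, 121, depended on the limits, with 48 for 2 kb tiles, 407 with a 35 min limit of 0.02, 574 with a 55 min minimum of 0.30 and 18 with 0.40. Of 93 median folds under alternatives, 87 stayed on the same side of 1. Those on the other side came from scaling to total nuclear signal (0.960 at 35 min, 0.964 at 45 min, 0.922 for Fkh1 OE in HU, 1.24 in the double mutant) and to mitochondrial signal (1.06 at 55 min, 0.996 for Fkh2 OE in HU). Total scaling also gave a median of 1.58 for Fkh2 OE in HU with 11.6% higher, 8.26% higher and 3.31% lower at 35 min, 1.65% higher at 45 min, and 11.6% higher and 0.826% lower in the double mutant. The cause was not tested. Divisions chosen after seeing the data, distances to Fkh1 OE peaks and the 16 members nearest to them (4.16-fold at 35 min, or 3.61 without the 5 that prompted it), stand in the text above.

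At 35 min, 27.3% of members were past 3-fold, 15.7% were higher with a pseudocount of 0.01, and 0.826% were lower by 1.5-fold. At 45 min the share higher was 9.58% with the 35 min limit of 0.02, 18.1% and 0% with 55 min minima of 0.30 and 0.40, 9.09% with mitochondrial scaling, 27.3% at 1.5-fold and 0.826% at 3-fold. At 55 min 0.862% were lower on the shifted grid and 0.826% at 1.5-fold. For Fkh1 OE in HU the share higher was 1.72% on the shifted grid, 4.42% with the 35 min limit of 0.02, 3.48% with the 55 min minimum of 0.30, 1.6% with tile medians and 27.3% at 1.5-fold. For Fkh2 OE in HU it was 0.862%, 1.23% (with 0.246% lower), 0.348% and 0.8% under the first 4 of these. In the double mutant the share higher was 0.870% on the shifted grid, 0% for 2 kb tiles (10.4% lower), 5.56% with the 55 min minimum of 0.40, 4.8% with tile medians, 1.54% with 1 value per segment, 9.09% at 1.5-fold (33.9% lower), 0.826% at 3-fold (0.826% lower) and 0% with the pseudocount (0.826% lower). For RNR3 OE 0.862% were lower on the shifted grid and 0.826% at 1.5-fold.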
